A study of Mus musculus with 6 samples.

Results

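A set of 10 genes of protein folding in the endoplasmic reticulum was followed in mouse fetal liver erythroblasts grown with and without carbon dots. They were taken by gene symbol and are Hspa5, Hsp90b1, Hyou1, Dnajb9, Sdf2l1, Calr, Pdia3, Pdia4, Pdia6 and Xbp1, 10 of the 17691 genes measured. All 10 were among the 12283 genes that passed the filter on low counts. Erythroblasts are the nucleated precursors of red blood cells. The starting cells were C57BL/6J fetal liver erythroblasts negative for TER119, which appears on the surface as red cells mature. They were grown with erythropoietin (Epo), the hormone of red cell production. CDs cultures received carbon dots, nanometre-sized carbon particles made from the plant Codonopsis pilosula, at 1 ug/ml for 30 h. Untreated cultures went through the same purification and Epo medium without the particles. Each group had 3 RNA sequencing libraries, numbered 1 to 3, and no genetic change is named for either. The labels do not say whether the 3 came from separate litters or cultures, so p-values measure only how far these libraries vary, part of which may be technical. Erythroid markers fit the label in all 6 libraries: 12 of them summed to 58182 CPM (counts scaled to a common library total) or more, led by the globin gene Hba-a1, and markers of other cells were detected beside them, as described below. The CDs libraries held 17695997, 19992001 and 19899304 expected counts, against 19920652, 19896958 and 20066581 in untreated libraries. Both libraries numbered 3 lay at one end of the first principal component, which held 88.7% of the variance, with scores of 95.7 (CDs 3) and 74.6 (untreated 3) against at most 14.9 in the other 4.

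The endoplasmic reticulum folds, glycosylates and oxidises proteins bound for the cell surface or for secretion. Its main chaperones bind nascent chains, lectin chaperones hold glycoproteins in a folding cycle, and protein disulfide isomerases form and reshuffle their disulfide bonds. When unfolded proteins accumulate, the sensors IRE1 (gene Ern1), ATF6 and PERK (gene Eif2ak3) start the unfolded protein response, in which IRE1 splices Xbp1 mRNA and the XBP1 and ATF6 proteins switch on chaperone genes. Erythroblasts are not secretory cells, but their Epo receptor, transferrin receptor and membrane glycoproteins pass through this compartment. The counts used here are totals per gene, so the spliced and unspliced forms of Xbp1 mRNA were not separated.

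With CDs, 8 of the 10 genes had higher values than untreated cells in every numbered pair, by small amounts and with overlap between the groups. The 8 were Hspa5, Hsp90b1, Hyou1, Calr, Pdia3, Pdia4, Pdia6 and Xbp1. Group means over the 8 were 1.13-fold (Hyou1) to 1.38-fold (Pdia4) higher in CDs than in untreated libraries. Of all tested genes, 30.1% were likewise higher with CDs in all 3 pairs. None of the 10 passed the edgeR test without the replicate number as a block (adjusted p = 0.994 to 1.00), which called 0 of 12283 genes (0.00%) at an adjusted p under 0.05, while 127 genes (1.03%) had an unadjusted p under 0.05. With the replicate number as a block edgeR called 5 genes (0.0407%) and limma-voom 6 (0.0488%), none of them among the 10. DESeq2 with that block called Pdia4 and Pdia6 higher, 2 of the 10, against 7.76% of all genes called higher. Library number separated the values of these genes more than treatment did, as the levels below show.

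**Figure D1:**
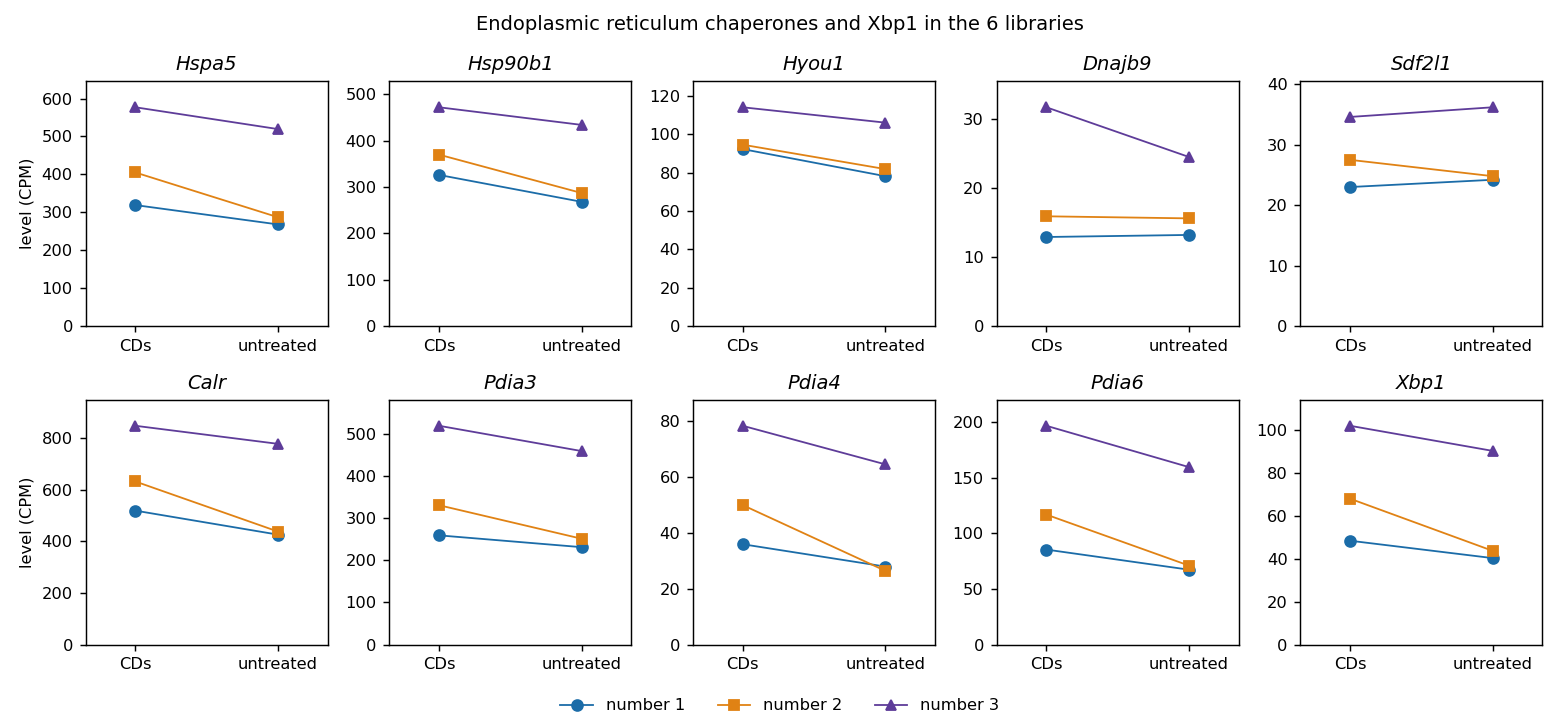
Level of each gene in CPM (vertical axis from 0) in the CDs library (left) and the untreated library (right) of each number, joined by a line per number (circle 1, square 2, triangle 3). Number 3 was highest in both groups for all 10 genes, and the lines of 8 genes are higher at the CDs end in all 3 numbers.

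The ATPase chaperones were measured first. Hspa5 encodes BiP, the HSP70 of the endoplasmic reticulum and the protein that keeps the stress sensors inactive at rest. It had 319, 405 and 577 CPM in CDs 1 to 3, against 268, 287 and 519.5 CPM in untreated 1 to 3. The highest value of each group was that of number 3, and untreated 3 lay above CDs 1 and CDs 2. The log2 fold change of Hspa5 was 0.28 ± 0.36 (SE) without the block and 0.30 ± 0.08 with it. Hsp90b1 encodes GRP94, the HSP90 of this compartment, which folds integrins and Toll-like receptors. It had 326, 369.8 and 472 CPM in CDs 1 to 3, against 268, 287 and 434 CPM in untreated 1 to 3, a log2 fold change of 0.24 ± 0.25 without the block. Hyou1 encodes GRP170, a nucleotide exchange factor for BiP. It had 92.2, 94.5 and 114 CPM in CDs 1 to 3, against 78.1, 81.8 and 106 CPM in untreated 1 to 3. Of the 10 genes it varied least across the 6 libraries, 1.46-fold from lowest to highest, and its log2 fold change was 0.18 ± 0.17.

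The co-chaperones Dnajb9 and Sdf2l1 were the exceptions among the 10. Dnajb9 encodes ERdj4, a J-domain partner of BiP that acts in the degradation of misfolded proteins and is a known XBP1 target. It had 12.9, 15.9 and 31.7 CPM in CDs 1 to 3, against 13.2, 15.6 and 24.5 CPM in untreated 1 to 3. Within numbers 1 and 2 the log2 differences of Dnajb9 were -0.03 and 0.03, and within number 3 the difference was 0.37. Sdf2l1 encodes a protein found in a complex with ERdj3 and BiP. It had 23.0, 27.5 and 34.6 CPM in CDs 1 to 3, against 24.2, 24.8 and 36.2 CPM in untreated 1 to 3. The groups had the same mean of 28.4 CPM, with an SD of 5.87 in CDs and 6.78 in untreated libraries (n = 3 each). The log2 fold change of Sdf2l1 was -0.0017 ± 0.24 (SE), and its direction changed with the scaling.

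The lectin cycle was represented by Calr and Pdia3. Calr encodes calreticulin, a calcium-binding lectin chaperone of glycoproteins. It had 519, 632 and 848 CPM in CDs 1 to 3, against 426, 438 and 778 CPM in untreated 1 to 3. Untreated 3 exceeded CDs 1 and CDs 2, and the log2 fold change of Calr was 0.28 ± 0.32 without the block and 0.31 ± 0.09 with it. Pdia3 encodes ERp57, the disulfide isomerase that works with calreticulin and calnexin. It had 259, 330.5 and 519 CPM in CDs 1 to 3, against 231, 251 and 459 CPM in untreated 1 to 3, a log2 fold change of 0.24 ± 0.39.

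The disulfide isomerases Pdia4 and Pdia6 gave the largest log2 fold changes of the 10. Pdia4 encodes ERp72 and had 35.9, 49.9 and 78.3 CPM in CDs 1 to 3, against 27.9, 26.4 and 64.5 CPM in untreated 1 to 3. Its CDs mean was 54.7 ± 21.6 CPM and its untreated mean 39.6 ± 21.6 CPM (SD, n = 3 each), a difference smaller than either SD. Each SD includes the spread between library numbers, and within numbers 1 to 3 the log2 differences of Pdia4 were 0.36, 0.92 and 0.28. Pdia6 encodes P5, which also ends the signal of IRE1, and had 85.5, 117 and 197 CPM in CDs 1 to 3, against 67.4, 71.1 and 159.8 CPM in untreated 1 to 3. Log2 fold changes without the block were 0.46 ± 0.47 (SE) for Pdia4 and 0.42 ± 0.48 for Pdia6. DESeq2 with the block gave 0.50 ± 0.17 for Pdia4 (adjusted p = 0.0399, from 0.0221 to 1.00 over all alternatives). For Pdia6 it gave 0.44 ± 0.13 (adjusted p = 0.0138, from 0.0114 to 1.00). These 2 calls were lost in DESeq2 with the block when both libraries numbered 1 were left out (adjusted p = 0.612 for Pdia4 and 0.634 for Pdia6, with 0.358% of all genes called) or both numbered 2 (adjusted p = 0.610 for Pdia4 and 0.463 for Pdia6, with 1.86% called). With both numbered 3 left out, DESeq2 called 4 of the 10, Hspa5, Calr, Pdia4 and Pdia6, against 7.01% of all genes.

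Xbp1, the one transcription factor of the 10, had 48.4, 68.0 and 102 CPM in CDs 1 to 3, against 40.3, 43.7 and 90.3 CPM in untreated 1 to 3. CDs 1 and CDs 2 lay above untreated 1 and 2 and below untreated 3. The log2 fold change of Xbp1 was 0.33 ± 0.43 (SE) without the block and 0.36 ± 0.10 with it. The blocked edgeR fit gave it an adjusted p of 0.107.

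Within the numbered pairs the genes differed by unequal amounts. In number 2 all 10 genes were higher with CDs, with a median log2 difference of 0.45 and the largest at Pdia4 (0.92), Pdia6 (0.72) and Xbp1 (0.64). In number 1, 8 genes were higher (median 0.26), and in number 3, 9 were (median 0.17). Over all tested genes the medians were 0.04, 0.00 and 0.00 in numbers 1 to 3. The median log2 fold change of the 10 genes was 0.26 without the block, with 9 above 0, beside 0.01 over all tested genes, of which 51.9% were above 0. With the block 8 of the 10 had an unadjusted p under 0.05 and a higher value in edgeR, against 18.0% of all genes. At an adjusted p under 0.10 this fit called 1 of the 10, Pdia6 (0.45 ± 0.10, adjusted p = 0.0916), against 5.17% of all genes called higher. Limma-voom with the block called 3 at that level, Pdia6, Hsp90b1 and Hspa5, against 6.22%. DESeq2 with the block called 4 at that level, Hspa5, Calr, Pdia4 and Pdia6, against 1206 of 12283 genes called higher.

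**Figure D2:**
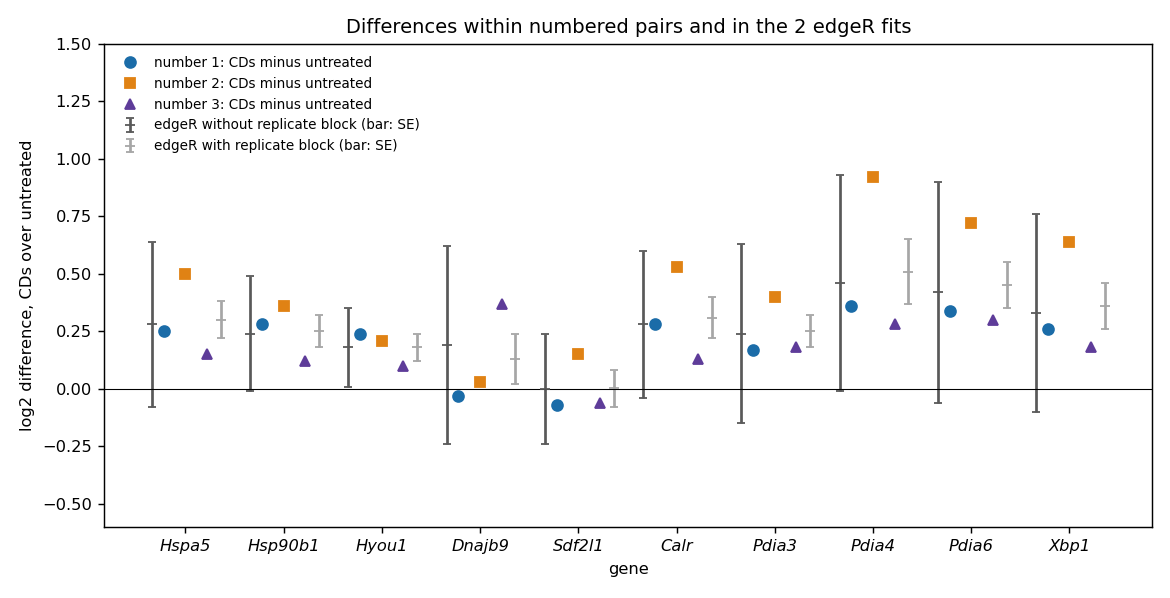
Log2 difference of CDs over untreated (vertical axis) for each gene within numbers 1 (circle), 2 (square) and 3 (triangle), with the edgeR estimate without the replicate block (dark bar, SE, left) and with it (light bar, SE, right). Number 2 gave the highest point in 8 of the 10 genes, the bars without the block reach 0 or below except for Hyou1, and Dnajb9 and Sdf2l1 each have points on both sides of 0.

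The spread between library numbers was larger than the difference between group means in each of the 10 genes. Untreated 3 exceeded untreated 1 in all 10 genes, from 1.36-fold (Hyou1) to 2.37-fold (Pdia6), with 1.94-fold for Hspa5 and 2.24-fold for Xbp1. CDs 3 exceeded CDs 1 in all 10 as well, from 1.23-fold (Hyou1) to 2.46-fold (Dnajb9). Over all tested genes 49.7% were higher in untreated 3 than in untreated 1, and 33.1% had at least the ratio seen in Hyou1. Together the 10 genes held 0.17%, 0.21% and 0.31% of the counts in CDs 1 to 3, against 0.14%, 0.15% and 0.273% in untreated 1 to 3. The group values of these genes moved when 1 library numbered 3 was left out without the other. Without CDs 3 the log2 fold change of Hspa5 was 0.02 and that of Pdia6 0.02, and without untreated 3 they were 0.64 and 0.94. Without CDs 3 the log2 fold change was below 0 for Pdia3 (-0.09), Dnajb9 (-0.30) and Sdf2l1 (-0.17), and without untreated 3 it was 0.62, 0.49 and 0.21 for these 3 genes. With both libraries numbered 3 left out it was 0.36 for Hspa5, 0.53 for Pdia6 and 0.27 for Pdia3. In that fit Dnajb9 had -0.02 and Sdf2l1 0.02.

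Summed markers of several other cell types were also highest in the libraries numbered 3 of both groups, namely those of macrophages, granulocytes, hepatocytes, B and plasma cells and mast cells. The sums of endothelial markers, led by Flt1, and of megakaryocyte markers were not. The summed level of 15 macrophage markers was 395, 1649 and 5567 CPM in CDs 1 to 3, against 169, 501 and 4302 CPM in untreated 1 to 3. Of these 15, 13 were higher with CDs in all 3 pairs, beside 30.1% of all tested genes. None of the 15 was at 0 in every library. In the other lists 8 of 10 endothelial, 7 of 11 hepatocyte and 5 of 12 granulocyte markers were higher in all 3 pairs. So were 3 of 12 B and plasma cell and 2 of 8 megakaryocyte markers, and 0 of the mast cell and erythroid markers. The 12 granulocyte markers summed to 399.8, 1352 and 2285 CPM in CDs 1 to 3, against 281, 897 and 2232 CPM in untreated 1 to 3. Fetal hepatocytes are secretory cells rich in chaperones, and their 11 markers summed to 354, 359 and 695 CPM in CDs 1 to 3, against 295, 230 and 519 CPM in untreated 1 to 3. The 10 endothelial markers summed to 361 to 492 CPM in CDs and 162 to 221 CPM in untreated libraries. Flt1 alone gave 473, 391 and 252 CPM of this in CDs 1 to 3, against 158, 144 and 133 CPM in untreated 1 to 3, while Pecam1, Kdr, Cdh5 and Eng were highest in number 3 of each group. The 12 B and plasma cell markers summed to 65.3 to 93.7 CPM in CDs and 62.4 to 82.9 CPM in untreated libraries, of which Cd79b alone gave 57.5 CPM or more in each, while Jchain and Mzb1 stayed under 1 CPM. The 12 erythroid markers summed to 72929, 73985 and 58182 CPM in CDs 1 to 3, against 75125, 73886 and 62903 CPM in untreated 1 to 3. Megakaryocyte and mast cell markers reached at most 139 and 226 CPM in any library. The part of these cells in the values of the 10 genes was not tested, and in bulk RNA more cells of a type and more RNA per cell cannot be told apart.

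**Figure D3:**
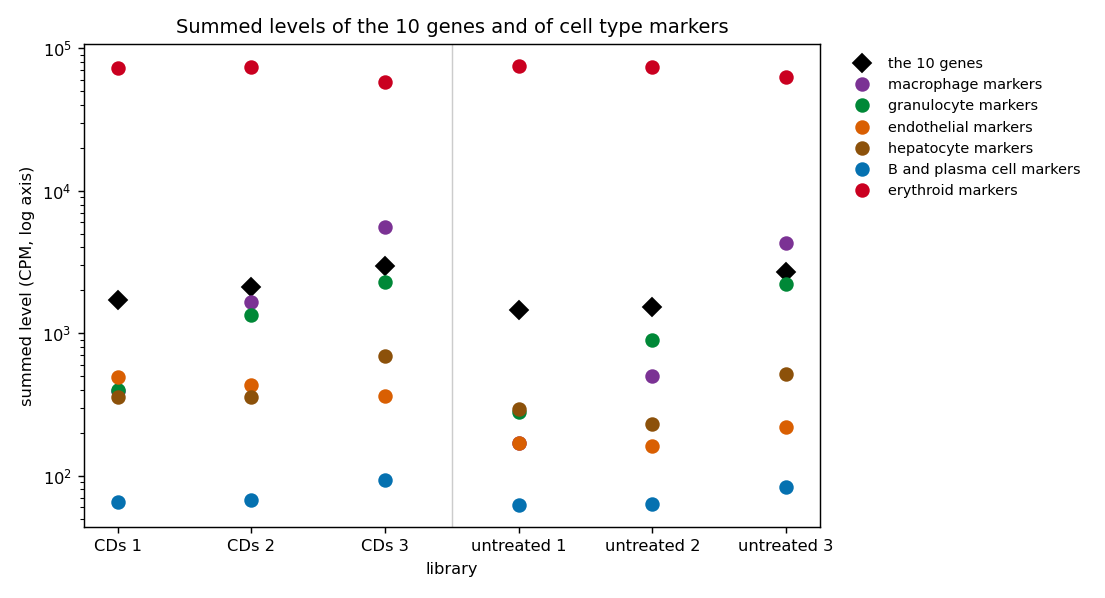
Summed level in CPM (vertical log axis) of the 10 genes (diamonds) and of 6 marker lists (circles) in CDs 1 to 3 (left) and untreated 1 to 3 (right). The 10 genes, macrophage, granulocyte and hepatocyte markers were all highest in library 3 of each group, where erythroid markers were lowest.

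Levels of different genes were compared per length, in the deposited FPKM, which scale fragments to gene length and library size. Calr was the highest of the 10 in all 6 libraries, at 346 ± 97.9 FPKM in CDs and 279.7 ± 110 FPKM in untreated libraries (SD, n = 3 each). Hspa5 was second in all 6, at 171 ± 57.6 FPKM in CDs and 139 ± 58.5 FPKM in untreated libraries. Hsp90b1 and Pdia3 did not differ beyond their spread, with means of 141 and 141 FPKM in CDs and 118 and 117 FPKM in untreated libraries. Pdia6 followed at 63.3 ± 29.4 FPKM in CDs and 46.5 ± 25.8 FPKM in untreated libraries. Xbp1, Sdf2l1, Hyou1 and Pdia4 had means of 22.2 to 32.8 FPKM in CDs and 15.9 to 25.8 FPKM in untreated libraries, and neighbours among these 4 overlapped. Dnajb9 was lowest in all 6 libraries, at 11.0 ± 5.87 FPKM in CDs and 9.47 ± 3.44 FPKM in untreated libraries. Among tested genes, Calr lay at percentile 98.3 of mean FPKM and Dnajb9 at percentile 54.0.

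In RefSeq (GRCm38.p6) the 10 genes lie on 8 chromosomes, 2 of them on chromosome 2 (Hspa5 at 34772090 to 34776529 and Pdia3 at 121413902 to 121438687). Pdia6 (17266589 to 17284785) and Dnajb9 (44205897 to 44210068) share chromosome 12. The others are on chromosome 10 (Hsp90b1, 86690841 to 86705444), 9 (Hyou1, 44379490 to 44392369), 16 (Sdf2l1, 17130138 to 17132383), 8 (Calr, 84842088 to 84846931), 6 (Pdia4, 47796141 to 47813512) and 11 (Xbp1, 5520641 to 5525993). No strand-marking step is described in the labels, and antisense transcripts would be counted with a gene. Pdia3 overlaps Catsper2 on the opposite strand by 18 bases in GENCODE M21, and Catsper2 had at most 1.64 CPM. Pdia6 overlaps Atp6v1c2 on the opposite strand by 50 bases, and Atp6v1c2 had at most 0.155 CPM. Hsp90b1 overlaps a transcribed pseudogene of the opposite strand, 1810014B01Rik, by 4598 bases, and a processed transcript of its own strand, Gm15344, by 977 bases. Calr has a processed pseudogene elsewhere, Calr-ps, and pseudogenes elsewhere were searched by name only. 1810014B01Rik, Gm15344 and Calr-ps are not rows of the count table, and reads from them could fall on the named genes.

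The promoters of these genes were searched because ATF6 and XBP1 act through a known sequence, the endoplasmic reticulum stress element (ERSE), which reads CCAAT, any 9 bases, then CCACG. Both strands were searched over 300 bases, 250 before and 50 after the RefSeq start, and 9 of the 10 genes had a promoter to search (not Hyou1). Only exact matches were counted, so an element with a changed base or outside the window would be missed. An ERSE was found in 4 of the 9, Hspa5, Hsp90b1, Calr and Pdia6, against 39 of 32851 promoters (0.119%) of 27025 genes. The 10 genes were picked as genes of protein folding and of this response, and the ERSE is its known element. The count is therefore a description and no test of enrichment. The related elements ERSE-II (ATTGG, any base, then CCACG, in 0.0365% of all promoters) and UPRE (TGACGTGG, in 0.676%) matched none of the 9. The CCAAT box, which is the first part of the ERSE, was in 37.4% of all promoters and in each of the 9 except that of Xbp1. The 4 stretches that hold an ERSE are printed 5′ to 3′ on the gene's strand with the ERSE in capitals. They are chr2:34771995-34772073 (plus strand, Hspa5), chr10:86705503-86705686 (minus strand, Hsp90b1), chr8:84847045-84847123 (minus strand, Calr) and chr12:17266461-17266539 (plus strand, Pdia6).
Hspa5: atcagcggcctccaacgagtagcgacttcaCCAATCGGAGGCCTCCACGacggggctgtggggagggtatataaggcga
Hsp90b1: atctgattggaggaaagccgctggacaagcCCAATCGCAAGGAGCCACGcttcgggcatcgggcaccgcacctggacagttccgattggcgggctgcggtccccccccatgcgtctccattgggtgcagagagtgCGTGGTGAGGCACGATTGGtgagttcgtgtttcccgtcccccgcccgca
Calr: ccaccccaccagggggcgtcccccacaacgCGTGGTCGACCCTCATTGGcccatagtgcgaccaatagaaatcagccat
Pdia6: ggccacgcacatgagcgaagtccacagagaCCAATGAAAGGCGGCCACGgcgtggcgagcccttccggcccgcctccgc
In Hspa5 and Pdia6 the element reads forward, from base 65 to base 47 and from base 98 to base 80 before the start. In Calr it reads on the reverse strand, from base 162 to base 144 before the start, so the capitals there begin with CGTGG and end with ATTGG. Hsp90b1 has a forward copy from base 212 to base 194 and a reverse copy from base 107 to base 89.

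**Figure D4:**
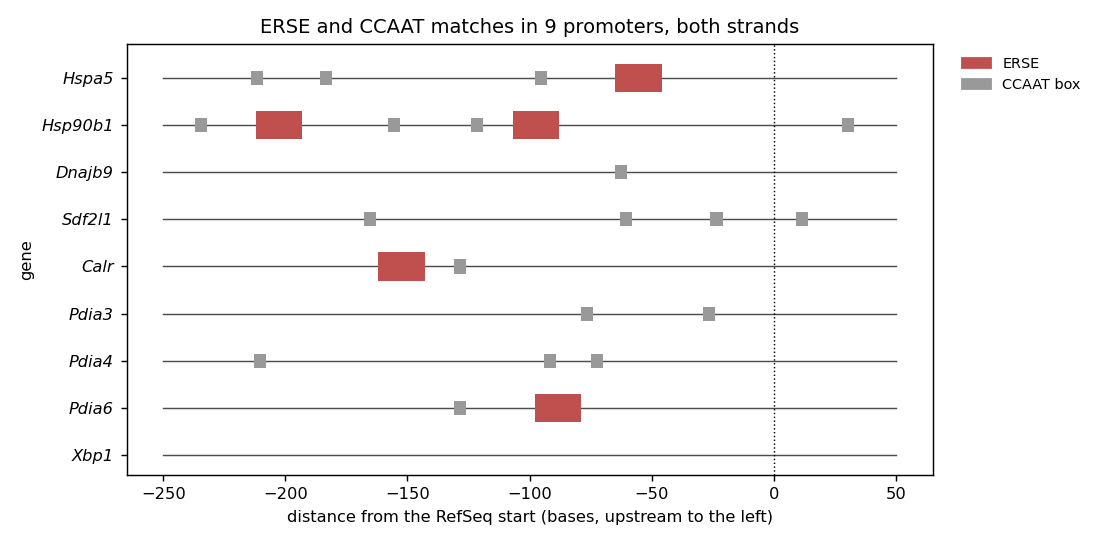
ERSE matches (tall bars) and CCAAT boxes (short bars) in the promoters of 9 genes, by distance in bases from the RefSeq start (dotted line), both strands together. The CCAAT box inside an ERSE is covered by its bar, 4 genes hold an exact ERSE match, and Xbp1 has an exact match to neither motif.

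The 4 genes with an exact ERSE match had log2 fold changes of 0.24 to 0.42 without the block. The 5 searched genes without an exact match had -0.0017 to 0.46, and control by the element was not tested. Pdia4, with the highest log2 fold change of the 10, had no exact match in the window. Among 6 further lists of the secretory pathway, given below, 6 genes held an ERSE and were not all higher with CDs. Calnexin (Canx), the membrane partner of calreticulin, had 371, 352 and 323 CPM in CDs 1 to 3, against 353, 339 and 297 CPM in untreated 1 to 3. The log2 fold changes were 0.08 for Canx, 0.06 for Dnajc3, 0.31 for Ero1b, 0.00 for Creld2 and -0.04 for Syvn1, and Derl3 stayed under 1 CPM in all 6 libraries.

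The profiles most like that of Hspa5 were found by the root mean square difference in log2 CPM over the 6 libraries, each gene centred on its mean. Among 8184 other genes with a mean of at least 10 CPM they were Bcl2l1 (0.0254), Anxa11 (0.0309), Fam214b (0.035), the disulfide isomerase gene P4hb (0.039) and Col3a1 (0.0453), while the median gene differed by 0.567. Calr (0.0505) and Pdia3 (0.055) ranked 7 and 10, and Hyou1 (0.239) ranked 882. For Xbp1 the nearest genes were Mob3a (0.0372), Man2a2 (0.0552), Pqlc3 (0.0619), Tagln2 (0.0626) and Spns1 (0.0629). Pdia6 ranked 20 for Xbp1 (0.0764) and Hspa5 ranked 60 (0.097). P4hb, which encodes the founding protein disulfide isomerase, had 158, 214 and 304 CPM in CDs 1 to 3, against 145, 151 and 268 CPM in untreated 1 to 3.

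A further 6 lists of the same pathway, 161 tested genes in all, showed how far the pattern of the 10 extended. In edgeR without the block 0 of the 161 passed adjustment. Among 42 other folding genes of the endoplasmic reticulum, 12 were higher with CDs in all 3 pairs and 10 were lower (28.6% and 23.8%), beside 30.1% and 26.2% of all tested genes, and their median log2 fold change was 0.00. Txndc12, a thioredoxin-like protein, had 0.46 ± 0.85 (SE, log2 fold change without the block), or -0.34 without CDs 3 and 1.52 without untreated 3. Txndc5, a disulfide isomerase, had 0.30 ± 0.28, or 0.11 without CDs 3 and 0.58 without untreated 3. With both libraries numbered 3 left out, Txndc12 had 0.71 and Txndc5 0.36. Serpinh1, the collagen chaperone HSP47, had 2.92, 2.36 and 2.31 CPM in CDs 1 to 3, against 1.39, 0.818 and 1.76 CPM in untreated 1 to 3, without overlap between the groups. Groups did not overlap in 5 of the 42, 2 higher with CDs (Fkbp10 and Serpinh1) and 3 lower, and in none of the 10, against 2.36% of all genes higher and 2.33% lower.

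Genes of entry into the endoplasmic reticulum and of export from it differed from the 10 in their counts. Of 36 genes of translocation and N-glycosylation, 12 were higher with CDs in all 3 pairs and 15 lower (33.3% and 41.7%). Of all tested genes 30.1% were higher and 26.2% lower, and the median log2 fold change of the 36 was -0.06. DESeq2 with the block called 1 of the 36, Sec61g, a small subunit of the translocon (against 2.09% of all genes called lower). It had 52.6, 68.2 and 57.4 CPM in CDs 1 to 3, against 80.1, 81.9 and 73.6 CPM in untreated 1 to 3. Its log2 fold change in that fit was -0.43 ± 0.13 (adjusted p = 0.0153, from 0.0153 to 1.00 over all alternatives). The call of Sec61g was lost in DESeq2 with the block when both libraries numbered 1, 2 or 3 were left out (adjusted p = 0.989, 0.125 and 0.0774). Srp54a, of the signal recognition particle, had -0.25 ± 0.10 without the block, and Hspa13, an HSP70 relative that was listed here, 0.43 ± 0.23. Counts and FPKM of Srp54a disagreed by an RMS log2 deviation of 0.0438, against a median of 0.0057 over 9238 genes. Of 23 genes of exit in COPII vesicles, 11 were higher in all 3 pairs and 5 lower (47.8% and 21.7%, median 0.05), with Sec24d at 0.66 ± 0.73, Sec16a at 0.23 ± 0.18 and Sec13 at -0.20 ± 0.17. Of 32 genes of endoplasmic reticulum-associated degradation, 11 were higher and 7 lower (34.4% and 21.9%, near the shares of all tested genes, median -0.01). Among them Sel1l, the adaptor of the HRD1 ubiquitin ligase, had 0.22 ± 0.24, Erlin1 0.48 ± 0.52 and Edem1, a mannosidase-like lectin, 0.39 ± 0.51. These values moved when 1 library numbered 3 was left out without the other. Without CDs 3 the log2 fold change was 0.10 for Sec24d, 0.11 for Sec16a, -0.08 for Sec13, 0.02 for Sel1l, 0.05 for Erlin1 and -0.04 for Edem1. Without untreated 3 it was 1.53, 0.38, -0.30, 0.42, 0.97 and 0.96 for these 6 genes. With both libraries numbered 3 left out it was 0.94, 0.24, -0.21, 0.19, 0.53 and 0.52, in the same order.

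The list of sensors and regulators and the list named PERK arm (Atf4 and genes downstream of PERK or ATF4) differed in their counts by direction. The activity of PERK, or of any other kinase upstream of ATF4, was not measured. Of 16 sensors and regulators, 8 were higher with CDs in all 3 pairs and 3 lower (50.0% and 18.8%, beside 30.1% and 26.2% of all tested genes). Their median log2 fold change was 0.16. Atf6 had 87.7, 93.8 and 138 CPM in CDs 1 to 3, against 72.5, 78.6 and 118 CPM in untreated 1 to 3. Ern1, the gene of IRE1, had 10.8, 12.5 and 22.2 CPM in CDs 1 to 3, against 8.42, 8.64 and 16.6 CPM in untreated 1 to 3. Both had their highest value in number 3 of each group, and their blocked edgeR log2 fold changes were 0.25 ± 0.06 (adjusted p = 0.0919, from 0.0712 to 1.00 over all alternatives) and 0.44 ± 0.10 (adjusted p = 0.0934, from 0.076 to 1.00). Without the block and without CDs 3 the log2 fold change was 0.02 for Atf6 and 0.05 for Ern1, and without untreated 3 it was 0.49 and 0.83. With both libraries numbered 3 left out it was 0.24 for Atf6 and 0.43 for Ern1. Mbtps2, the protease that releases ATF6, had 0.42 ± 0.22 without the block (0.24 without CDs 3), and Eif2ak3, the gene of PERK, 0.09 ± 0.15.

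Of the 12 genes in the PERK arm list, 9 were lower with CDs in all 3 pairs, Atf4 among them, and 2 were higher (75.0% and 16.7%, beside 26.2% and 30.1% of all tested genes). The median log2 fold change of the 12 was -0.16. Ddit3, which encodes the stress factor CHOP, had 119.7, 119 and 117 CPM in CDs 1 to 3, against 134, 135 and 130.4 CPM in untreated 1 to 3. It belonged to 4 of the 12 whose groups did not overlap, with Atf5, Trib3 and Sesn2, all lower with CDs (33.3%, against 2.33% of all genes), and its log2 fold change was -0.16 ± 0.09. Atf5, an ATF4 target, had -0.19 ± 0.10, and none of these 4 passed in any fit. Counts and FPKM of Ddit3 disagreed by an RMS log2 deviation of 0.0231. Asns, asparagine synthetase, had 888, 745 and 359 CPM in CDs 1 to 3, against 981, 899 and 507 CPM in untreated 1 to 3. It was called lower by DESeq2 with the block, as were 2.09% of all genes (-0.32 ± 0.11, adjusted p = 0.039, from 0.039 to 1.00 over all alternatives). Atf3, also an immediate early gene, was called higher there, as were 7.76% of all genes (1.01 ± 0.26, adjusted p = 0.00275, from 0.000142 to 1.00), with 8.52, 22.8 and 123 CPM in CDs 1 to 3, against 4.03, 7.06 and 95.3 CPM in untreated 1 to 3. Atf3 was highest in number 3 of each group, as the macrophage markers were, and their part in this result was not tested. Without CDs 3 the edgeR log2 fold change of Asns, -0.26 ± 0.42 over all 6 libraries, was 0.04. With both libraries numbered 3 left out it was -0.22. The DESeq2 call of Asns with the block was lost when both libraries numbered 1, 2 or 3 were left out (adjusted p = 0.785, 0.329 and 0.422).

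**Figure D5:**
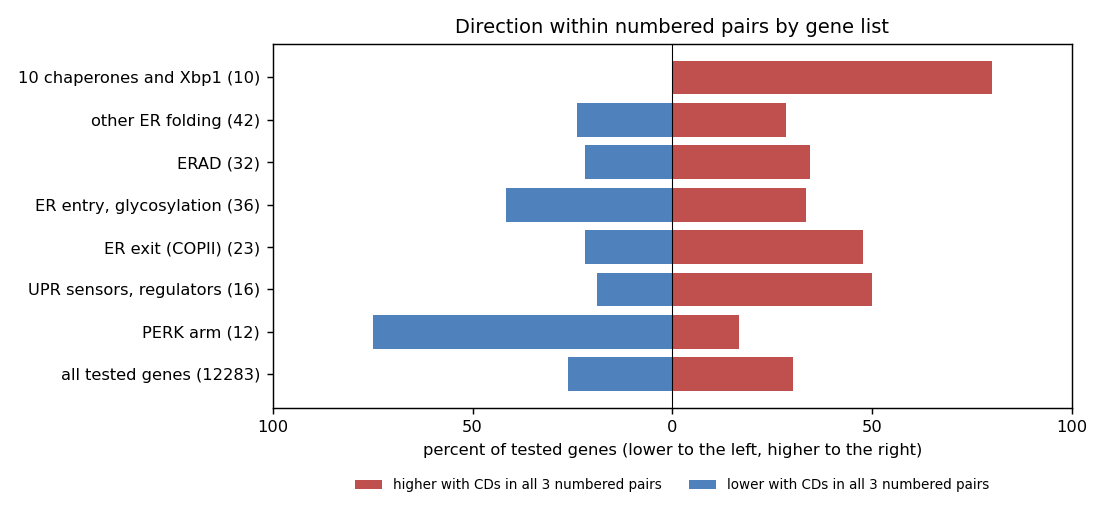
Percent of the tested genes of each list (number in brackets) that were higher (right) or lower (left) with CDs in all 3 numbered pairs. The 10 genes had 80.0% higher and none lower, the PERK arm 16.7% higher and 75.0% lower, and all tested genes 30.1% and 26.2%.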

How the data were processed

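Polyadenylated RNA of 3 CDs and 3 untreated libraries was read from one end over 50 bases, per the labels' protocols. Per the submitters' processing notes the build was GRCm38.p6 and the tools, listed without roles, included RSEM 1.2.12, HISAT2 2.0.4, DESeq2 1.4.5 and Bowtie2 2.2.5. The authors deposited expected counts per gene (30.1% not whole), which were rounded here, and a second table whose deposited values are taken as FPKM because counts over FPKM gave 1 length per gene. Library totals ran from 17695997 to 20066581 expected counts. Counts and FPKM of the 10 genes agreed within an RMS log2 deviation of 0.00308. Symbols were matched to RefSeq by Entrez number for 17570 genes (99.3%).

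Genes passing filterByExpr (12283) went into edgeR 4.0.16 in R 4.3.3, with TMM scaling, the robust quasi-likelihood test and treatment as sole term. Benjamini-Hochberg adjustment ran over all of them, and a call means an adjusted p under 0.05. The SE of an edgeR fit is the size of the log2 fold change divided by the root of its F statistic. For DESeq2 it is the SE that the tool reports. CPM use TMM-scaled totals, and pair differences use log2 CPM with a prior count of 2. Alternatives used DESeq2 1.42.0, limma 3.58.1 (voom, and log2 of FPKM plus 1), other scalings, no filter, left-out libraries and the replicate number as a block. Simulated counts were used to try edgeR without and with the block, and limma-voom and DESeq2 with it. The other alternatives were not tried on simulated data. Deviations from group means correlated between same-numbered libraries at 0.91, 0.34 and 0.94 over all genes tested. Each was above the limit of 0.1, so the numbers were taken to pair the libraries. Unlike numbers also passed this limit for CDs 1 with untreated 2 (0.68) and CDs 2 with untreated 1 (0.14), and the others were below 0. The limit therefore does not establish the pairing, which is least certain for number 2.

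Named genes are the 10, the 3 genes of each wider list with the smallest unadjusted p in the blocked edgeR fit, and the 5 profiles most like Hspa5 and Xbp1. Others (P4hb, Canx, Eif2ak3, Atf3, Trib3, Sesn2, Fkbp10 and the other ERSE genes) were named after their values were seen. The members and lists were chosen with earlier results of these data known.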

Additional observations from a re-analysis of the deposited data

How the results depend on the processing

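Without the replicate block no setting called any of the 10 genes, and edgeR called 0 genes in all with any 1 library left out (0 to 0), as it did for the 10 (0 to 0). DESeq2 without the block called 14 genes. With the replicate block edgeR called 5, limma-voom 6, limma on log2(FPKM + 1) 2 and DESeq2 1210 genes, and of the 10 genes only DESeq2 called any, 2 of them. In alternatives chosen after seeing the data, DESeq2 with the block called 44, 229 and 861 genes with both libraries numbered 1, 2 or 3 left out, and 0, 0 and 4 of the 10. The block changed no other call among the 10 at an adjusted p under 0.05. Over 23 alternatives Hspa5, Hsp90b1, Hyou1, Calr, Pdia4, Pdia6 and Xbp1 kept their direction. With 1 library left out, log2 fold changes ran from 0.02 to 0.64 for Hspa5, from 0.11 to 1.01 for Pdia4, from 0.0025 to 0.80 for Xbp1, from -0.09 to 0.62 for Pdia3, from -0.30 to 0.49 for Dnajb9 and from -0.17 to 0.21 for Sdf2l1. They ran from -0.53 to 0.04 for Asns, from -0.04 to 0.96 for Edem1 and from -0.34 to 1.52 for Txndc12. For each of the 10 genes the lowest value came without CDs 3 and the highest without untreated 3. Sdf2l1, at -0.0017, turned positive in limma-voom (0.0082), with library totals only (0.02), with the block in edgeR (0.0031) and limma-voom (0.0009), on log2(FPKM + 1) without and with the block (0.03 and 0.03), and without both libraries numbered 1 (0.02) or 3 (0.02). It was also positive in DESeq2 with the block without both numbered 1 (0.03) or 3 (0.04). Dnajb9 had -0.02 without both libraries numbered 3. The cause was not tested. The median log2 fold change of all genes lay between -0.015 and 0.035 over all settings. Intervals rest on 3 libraries a group, which limits what can be called.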
